A study of Caenorhabditis elegans with 6 samples.

Results

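The insulin-like peptide genes of *Caenorhabditis elegans* were taken as every protein-coding gene whose name is *ins-* followed by a number, plus *daf-28*, which encodes a peptide of the same family. This gave 40 of 20191 protein-coding genes. Their messenger RNA was measured in dauer larvae, the stress-resistant arrested stage that *C. elegans* enters in place of ordinary third-stage development. The mutant group, *daf-16(0)*, carried the deletion allele *mgDf50* of *daf-16* together with *daf-7(e1372)*, and the control group carried *daf-7(e1372)* alone. Both groups therefore lacked normal DAF-7, a TGFβ-related ligand, and entered dauer because of that mutation. Embryos were incubated for 52 hours at 24°C, and the dauers that went into each pool were selected manually. Each genotype is a single strain with 3 libraries, and each library came from a pool of whole larvae. The submitters describe 2 biological replicates per strain and compared 4 of the 6 libraries, namely *daf-16(0)* replicates 2 and 3 with control replicates 1 and 2. The same 4 libraries are used here for the main comparison, and the comparison of all 6 is given beside it.

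DAF-16 is the FOXO transcription factor at the end of the insulin pathway. Insulin-like peptides are made as precursors, cut by proprotein convertases, released from dense core vesicles of neurons and from intestine and other tissues, and bind the receptor DAF-2. Peptides that activate DAF-2 (agonists) start a kinase chain through the PI3 kinase AGE-1, PDK-1 and the AKT kinases that keeps DAF-16 out of the nucleus. Peptides that oppose the receptor (antagonists) do the reverse, and mutants with little receptor signalling enter dauer. Many of the peptide genes are arranged as neighbours on the chromosomes, and a number of them are known in worms to be transcribed in few cells, often sensory neurons such as ASI and ASJ.

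Between 8103772 and 17808548 counts per library fell on protein-coding genes. Ribosomal RNA genes took 0.0599% to 1.24% of the counts in *daf-16(0)* libraries and 0.128% to 8.64% in control libraries, with the highest share in control replicate 1. Counts of the deleted gene checked the labels: the level of *daf-16* in CPM (counts relative to the library's protein-coding total, scaled between libraries by the TMM method) was 40.3, 63.5 and 43.0 in the *daf-16(0)* libraries, against 400, 355 and 198 in the controls (log2 fold change -2.80, SE 0.35, adjusted p = 0.00785 with 4 libraries, edgeR). Throughout, values are given in the order of replicates 1, 2 and 3. Markers of the dauer stage (*col-2*, *cut-1*, *col-40* and *sod-3*) summed to 22.1, 1181 and 1800 CPM in *daf-16(0)* libraries and 32254, 42932 and 11307 CPM in controls. Of these 4 markers, 4 were called lower with 4 libraries and 2 with 6, beside 9.59% and 7.39% of all genes tested. The study names *sod-3* as a known DAF-16 target and reports nearly all dauer-enriched collagens as lower in *daf-16(0)* dauers. A low sum therefore does not show that the mutant larvae were not dauers. Markers of the adult cuticle summed to 748, 412 and 287 CPM in *daf-16(0)* libraries and 1.99, 1.94 and 22.6 CPM in controls. Sperm markers summed to 345, 312 and 73.1 CPM in *daf-16(0)* libraries, against 14.1, 4.22 and 10.7 CPM in controls. The part of these differences in the results on the peptide genes was not tested.

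The dauer libraries held few transcripts of the family. No count in any library was recorded for 8 of the 40 genes (*ins-2*, *ins-8*, *ins-13*, *ins-21*, *ins-25*, *ins-31*, *ins-32* and *ins-38*), a share of 20%, against 12.9% of all protein-coding genes. A ninth gene, *ins-34*, had at most 3 counts in every library. A count of 3 corresponded to 0.196 to 0.330 CPM in *daf-16(0)* libraries and 0.154 to 0.426 CPM in control libraries, and a level below that value was not detectable at this depth. More than 3 counts in all 6 libraries were found for 7 genes, namely *ins-1*, *ins-17*, *ins-18*, *ins-27*, *ins-30*, *ins-33* and *ins-35*. All 3 *daf-16(0)* libraries had more than 3 counts for 15 genes, and all 3 controls for 10. In single libraries the number of genes over 3 counts was 22, 20 and 22 in *daf-16(0)* and 22, 15 and 13 in controls, so control replicate 1 had as many as the *daf-16(0)* libraries and the other controls had fewer. Across all protein-coding genes the corresponding numbers were 14320, 14260 and 14699 in *daf-16(0)* libraries and 14173, 13160 and 12737 in controls.

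The whole family summed to 79.7, 107 and 138 CPM in *daf-16(0)* libraries and to 230, 229 and 170 CPM in controls, and the genotypes did not overlap. Without *ins-17* and *ins-18* the summed levels of the genotypes overlapped. *ins-17* and *ins-18* together took 36.1%, 27.2% and 27.3% of the family's CPM per kilobase of exon in *daf-16(0)* libraries, against 41.9%, 69.5% and 46.9% in controls. Per kilobase of exon, a scale on which genes can be compared, *ins-18* averaged 26.6 ± 6.49 CPM per kb in *daf-16(0)* and 136 ± 65.0 CPM per kb in controls (SD, n = 3 each). *ins-17* averaged 40.8 ± 11.1 CPM per kb in *daf-16(0)* and 108 ± 29.8 CPM per kb in controls. In all 3 controls these were the leading members, in either order, and their means lay within 1 SD of each other. In *daf-16(0)* the leading mean was that of *ins-27*, to which no receptor activity is assigned here, at 48.8 ± 9.70 CPM per kb against 33.1 ± 14.0 CPM per kb in controls. *ins-27* and *ins-17* did not differ beyond their SD in *daf-16(0)*. Behind them came *ins-18*, then *ins-33* at 13.6 ± 7.38 CPM per kb and *ins-35* at 13.2 ± 9.63 CPM per kb, which did not differ beyond their SD. In controls the order after *ins-18* and *ins-17* was *ins-35* (41.7 ± 23.04 CPM per kb), *ins-28* (36.2 ± 13.2 CPM per kb) and *ins-27*, again with neighbours inside each other's SD. Among all protein-coding genes, the mean of *ins-18* per kilobase stood at percentile 81.8 in *daf-16(0)* and 95.4 in controls, and that of *ins-17* at percentile 87.6 in *daf-16(0)* and 94.4 in controls.

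**Figure D1:**
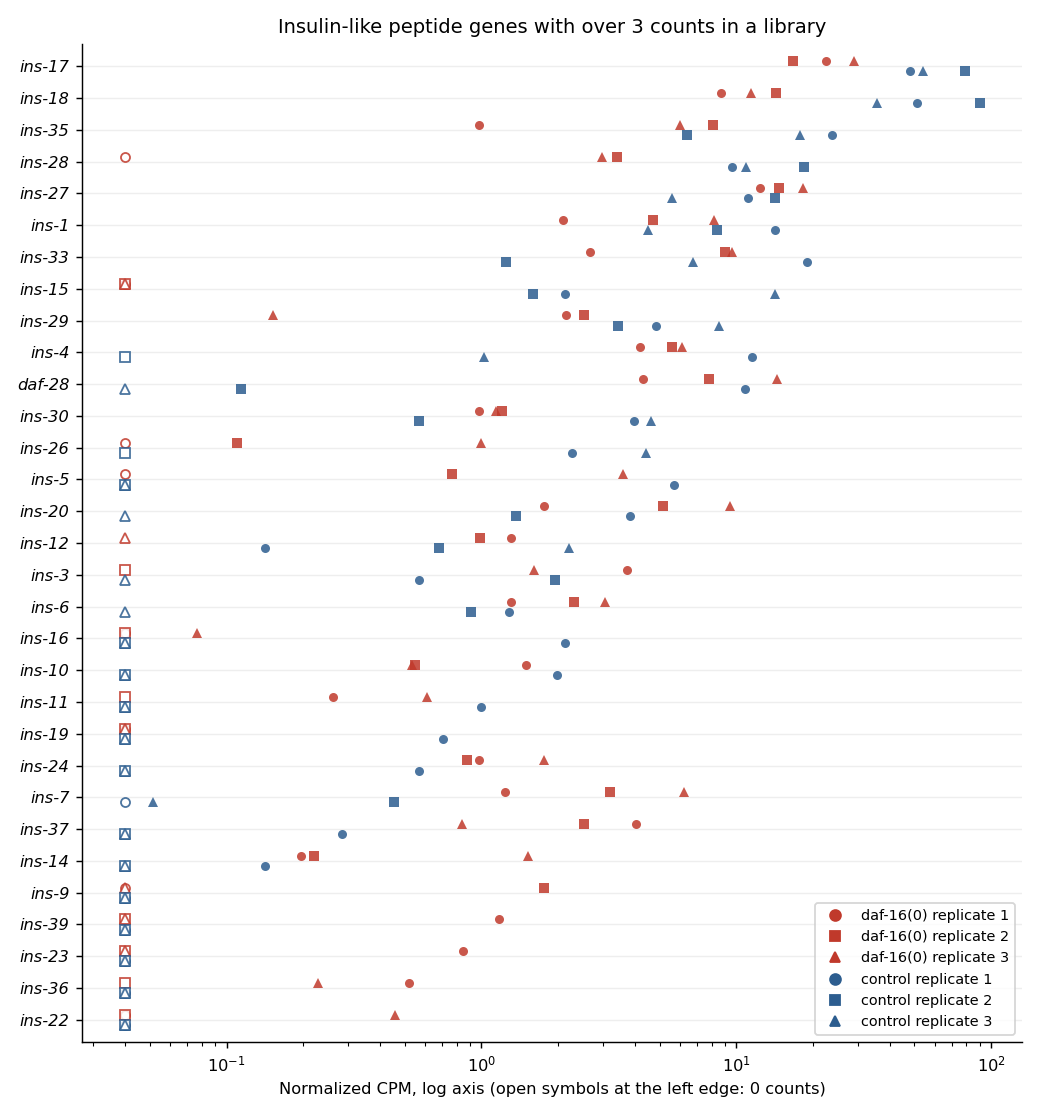
CPM (log scale) of each insulin-like peptide gene with over 3 counts in at least 1 library, with 1 point per library for *daf-16(0)* and control. *ins-17* and *ins-18* stand at the top in controls, and many genes have points at 0 in some libraries of either genotype.

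Of the 40 genes, 17 passed the filter on low counts with 4 libraries and 19 with 6 libraries, and 20 passed in at least 1 of these. The filter passed 67% of all protein-coding genes with 4 libraries and 67.5% with 6. A gene was called changed at an adjusted p of 0.05 or less and a fold change of at least 2, with edgeR's quasi-likelihood test and the Benjamini-Hochberg adjustment over all genes tested. With 4 libraries, 0 peptide genes were higher in *daf-16(0)* and 1 was lower, against 5.37% of all genes tested called higher and 9.59% called lower (15% in either direction). With 6 libraries, 0 were higher and 3 were lower (*ins-15*, *ins-17* and *ins-18*), where 5.06% of all genes were called higher and 7.39% lower (12.4% in either direction). The 1 of 17 lower genes is a share of 5.88% and the 3 of 19 a share of 15.8%, and on numbers this small neither was read as apart from the background. At an unadjusted p under 0.05 in edgeR's test there were 5 members in the 4-library fit and 4 in the 6-library fit, both directions together. The share of all genes at that level was not taken, so these numbers were not read further. DESeq2 called 1 member higher (*ins-7*) and 4 lower (*ins-15*, *ins-17*, *ins-18* and *ins-28*) with 4 libraries. With 6 libraries DESeq2 called 2 higher (*ins-7* and *ins-37*) and 3 lower (*ins-15*, *ins-17* and *ins-18*). DESeq2 also called more of all genes than edgeR: 1578 higher and 2028 lower with 4 libraries, against 727 and 1298. It called more with 6 libraries too, so its member counts are not set against the shares above. The median log2 fold change (*daf-16(0)* over control) of the members tested was -0.61 with 4 libraries and -0.43 with 6. For all genes tested the medians were 0.11 and 0.091. The sign of the members' median in the 4-library fit hung on control replicate 1. When that library was dropped, leaving 1 control, the median rose to 1.99. Dropping any other of the 4 libraries kept it negative, at -1.02 to -0.048. The members were measured less precisely than most genes: their median standard error was 1.12 on the log2 scale with 4 libraries, against 0.51 over all genes tested.

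**Figure D2:**
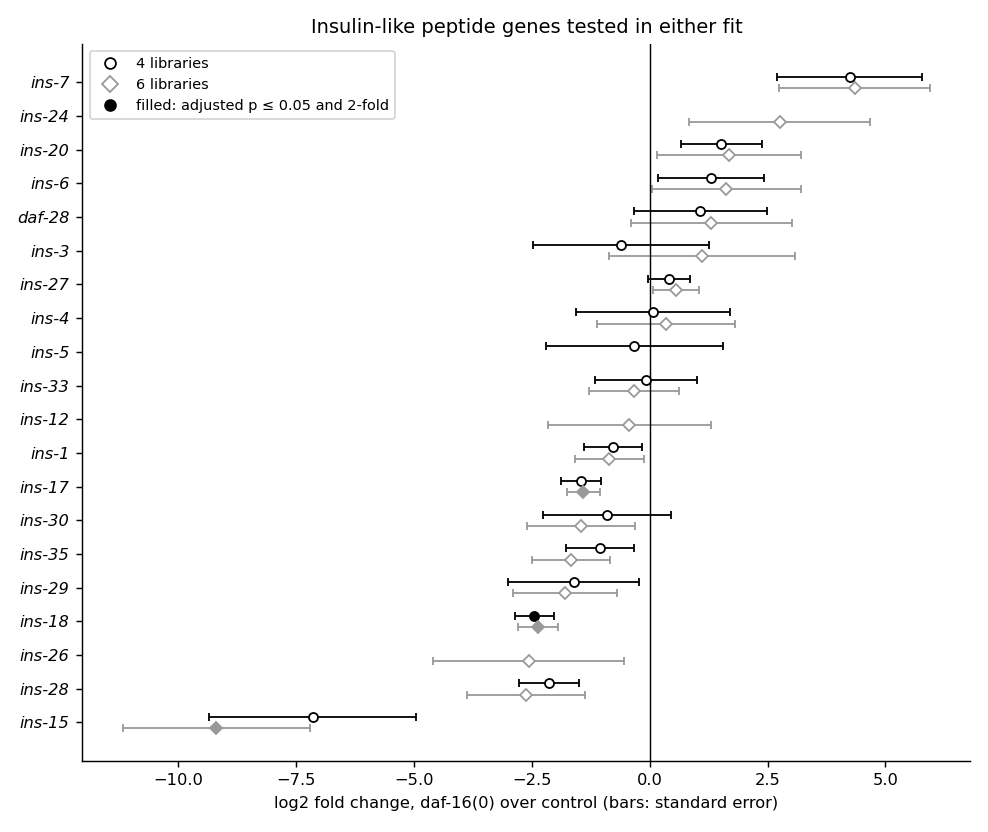
Log2 fold change of *daf-16(0)* over control with its standard error for each insulin-like peptide gene that was tested, from the 4-library and the 6-library fits. *ins-18* lies clear of 0 in both fits, and many other members have standard errors above 1.

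The known antagonists included the member with the clearest difference. *ins-18*, which encodes a peptide that opposes DAF-2, lies on chromosome I at 8147400 to 8149723 on the forward strand of WBcel235. It was measured at 8.68, 14.3 and 11.4 CPM in *daf-16(0)* and at 51, 90.2 and 35.7 CPM in the controls. Every control was above every *daf-16(0)* library, and control replicate 2 was the highest of the 6. *ins-18* was lower in *daf-16(0)* by a log2 fold change of -2.44 (SE 0.41, adjusted p = 0.0156, edgeR's quasi-likelihood test) with 4 libraries and -2.36 (SE 0.43, adjusted p = 0.0162) with 6. Its direction held with any 1 library left out, with a log2 fold change of -2.80 to -1.97 from the 4 libraries and -2.61 to -1.93 from the 6. The call was lost in edgeR's test without *daf-16(0)* replicate 2 (adjusted p = 0.0545) or replicate 3 (adjusted p = 0.0662) of the 4 libraries. From the 6 libraries it was lost without *daf-16(0)* replicate 1 (adjusted p = 0.0571), replicate 2 (adjusted p = 0.0667) or replicate 3 (adjusted p = 0.0600) in the same test.

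*ins-17*, which also encodes a peptide that favours dauer entry, lies on chromosome III at 4476888 to 4477583 on the reverse strand. It had 22.5, 16.7 and 29.1 CPM in *daf-16(0)* libraries, against 47.8, 79.1 and 53.9 CPM in controls. The genotypes did not overlap, and all 6 libraries held at least 152 counts of this gene. The log2 fold change was -1.45 (SE 0.43) with 4 libraries, where the adjusted p of 0.0679 in edgeR's test missed the threshold, and -1.40 (SE 0.34) with 6, where the adjusted p was 0.0382. With 1 of the 6 libraries left out, the call remained in edgeR's test only without control replicate 3 (adjusted p = 0.0326). With any other single library left out the adjusted p was 0.0620 to 0.155. Without control replicate 1, the other 3 of the 4 libraries gave a log2 fold change of -1.78 for *ins-17*, from a fit with 1 control.

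The other antagonists were nearer to the limit of detection. *ins-1*, a neuronal antagonist, had 2.09, 4.73 and 8.16 CPM in *daf-16(0)* libraries and 14.2, 8.44 and 4.52 CPM in controls. The 2 ranges overlapped, with control replicate 1 the highest and *daf-16(0)* replicate 1 the lowest. Its log2 fold change was -0.78 (SE 0.62, adjusted p = 0.391) with 4 libraries and -0.85 (SE 0.74, adjusted p = 0.472) with 6 in edgeR's test. *ins-37*, reported as an antagonist, pointed the other way. It had 62, 23 and 11 counts in *daf-16(0)* libraries (4.05, 2.53 and 0.839 CPM) and 2, 0 and 0 counts in controls (0.284, 0 and 0 CPM). Every *daf-16(0)* library was above every control, but the gene did not pass edgeR's filter in either fit. DESeq2 gave a log2 fold change of 3.67 (adjusted p = 0.249) with 4 libraries and 5.0 (SE 1.86, adjusted p = 0.0343) with 6. With 2 control counts in all, the ratio of the summed counts of the 6 libraries was 45.1 (exact 95% interval of 12.2 to 378, counting error only). *ins-11*, an antagonist made in the intestine, had 4, 0 and 8 counts in *daf-16(0)* and 7, 0 and 0 in controls. Summed over these 5 antagonists, the level was 37.5, 38.3 and 50.1 CPM in *daf-16(0)* libraries and 114, 178 and 94.2 CPM in controls, most of it *ins-17* and *ins-18*.

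**Figure D3:**
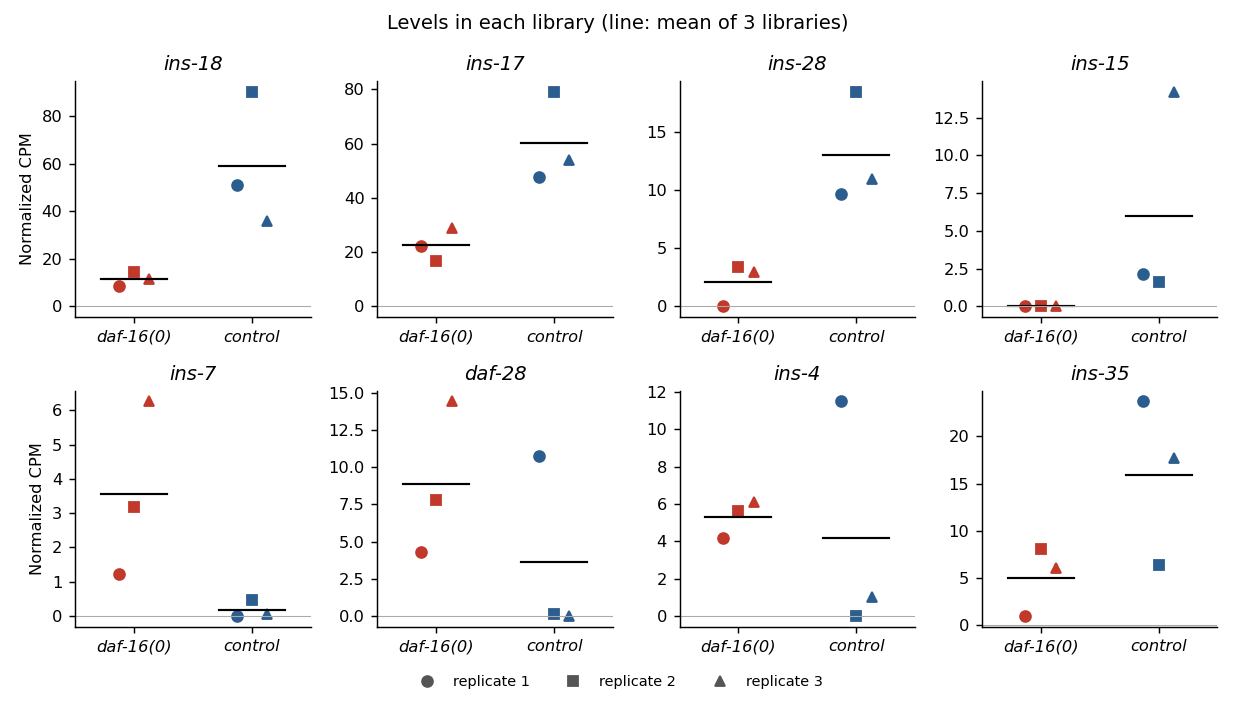
CPM in each library for selected insulin-like peptide genes, *daf-16(0)* left of control in each panel, with a line at the mean of the 3 libraries. *ins-17* and *ins-18* are below every control in *daf-16(0)*, *ins-7* is above every control, and in *daf-28* and *ins-4* control replicate 1 stands apart from the other controls.

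*ins-15* had counts in control libraries only. This gene, on chromosome II at 6744339 to 6744735 on the reverse strand, had 0 counts in all 3 *daf-16(0)* libraries, against 15, 14 and 277 counts in control replicates 1, 2 and 3 (2.13, 1.60 and 14.2 CPM). All controls were above all *daf-16(0)* libraries, and control replicate 3, which is outside the 4-library comparison, held most of the counts. Against a floor of 3 counts in each *daf-16(0)* library, the mean of the 3 libraries was at least 23.8-fold lower than that of the controls, and at least 7.41-fold lower without control replicate 3. The adjusted p in edgeR's test was 0.0839 with 4 libraries and 0.0386 with 6. That call was lost without any 1 of the 6 libraries, at an adjusted p of 0.0610 to 0.108. Its neighbour *ins-14*, on the same strand, had 3, 2 and 20 counts in *daf-16(0)* libraries and 1, 0 and 0 in controls and was tested in neither fit.

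*ins-28* and *ins-29* were also below every control. *ins-28* had 0, 3.41 and 2.98 CPM in *daf-16(0)* libraries, against 9.65, 18.5 and 10.9 CPM in controls. *daf-16(0)* replicate 1 held no count of it among 14754216, although it was deeper than the other *daf-16(0)* libraries. The log2 fold change was -2.12 (SE 0.64, adjusted p = 0.0705) with 4 libraries and -2.62 (SE 1.26, adjusted p = 0.203) with 6 in edgeR's test. From the 4 libraries without control replicate 1, a fit with 1 control, the log2 fold change of *ins-28* was -2.52. *ins-29* had 2.15, 2.53 and 0.153 CPM in *daf-16(0)* libraries, against 4.83, 3.42 and 8.57 CPM in controls. Its values did not overlap, but its log2 fold change of -1.61 (SE 1.39, adjusted p = 0.435) with 4 libraries and -1.80 (SE 1.11, adjusted p = 0.312) with 6 missed the threshold in edgeR's test.

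Among the 17 members that passed the 4-library filter, the 3 *daf-16(0)* values exceeded the 3 control values for 2 (*ins-6* and *ins-7*). They lay below for 5 (*ins-15*, *ins-17*, *ins-18*, *ins-28* and *ins-29*). The corresponding shares of all genes tested were 21.2% above and 19.6% below. With the 6-library filter, 3 of 19 members were above (adding *ins-24*) and 5 below, where the shares over all genes were 21.3% and 19.6%. *ins-6*, *ins-7*, *ins-15* and *ins-24* had at most 9 counts in every library of 1 genotype and passed the filter through the other genotype. For such genes the filter itself leaves 1 direction open, so their separation was not read as a result. Within the 4 libraries alone the genotypes were apart for 4 members with *daf-16(0)* above and for 6 members with *daf-16(0)* below, of 17, while 36.7% of all genes tested were above and 33.2% below.

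*ins-6* and *ins-7* encode agonists. *ins-7*, an agonist that in adult worms is known to be repressed by DAF-16, lies on chromosome IV at 9682013 to 9682826 on the reverse strand. It had 19, 29 and 82 counts in *daf-16(0)* libraries (1.24, 3.19 and 6.26 CPM) and 0, 4 and 1 counts in controls (0, 0.456 and 0.0513 CPM). Each *daf-16(0)* value exceeded each control value, and the *daf-16(0)* values differed among themselves, with replicate 3 the highest. Its log2 fold change was 4.24 (SE 1.54, adjusted p = 0.105) with 4 libraries and 4.35 (SE 1.60, adjusted p = 0.112) with 6 in edgeR's test, both short of the threshold. DESeq2 called it higher, with a log2 fold change of 4.30 (adjusted p = 0.0341) with 4 libraries and 4.4 (adjusted p = 0.0176) with 6. The estimate rests on 5 control counts in all, and without control replicate 2 the control left in the 4-library fit was at 0. Against a floor of 3 counts in that control, the *daf-16(0)* level of *ins-7* was then higher by at least 11.1-fold (adjusted p = 0.0708, edgeR). *ins-6*, an agonist of ASI and ASJ that promotes dauer exit, had 1.31, 2.31 and 3.05 CPM in *daf-16(0)* libraries, against 1.28, 0.912 and 0 CPM in controls. The lowest *daf-16(0)* library and the highest control lay next to each other. The log2 fold change was 1.31 (SE 1.12, adjusted p = 0.430) with 4 libraries and 1.63 (SE 1.58, adjusted p = 0.524) with 6 in edgeR's test.

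The result on 2 further agonists depended on control replicate 1. Each library was left out in turn, and this one is shown because its own counts of these genes set it apart. The fold changes, ratios and p-values without it follow from that choice and were not read as results. *daf-28*, an agonist of ASI and ASJ that opposes dauer entry, lies on chromosome V at 19815133 to 19816451 on the forward strand. It had 66, 71 and 189 counts in *daf-16(0)* libraries (4.31, 7.80 and 14.4 CPM) and 76, 1 and 0 counts in controls (10.8, 0.114 and 0 CPM). Control replicate 1 fell inside the range of the *daf-16(0)* libraries and the other controls were at or near 0. The log2 fold change was 1.08 (SE 1.41, adjusted p = 0.612) with 4 libraries and 1.31 (SE 1.71, adjusted p = 0.641) with 6 in edgeR's test. Without control replicate 1 the log2 fold change was 6.47 from the other 3 of the 4 libraries, a fit with 1 control. From the other 5 libraries it was 7.43 (adjusted p = 0.0423, edgeR). Only 1 control count was then left, and the ratio of the summed counts was 103 (exact 95% interval of 18.3 to 4073, counting error only) from 3 libraries and 245 (43.7 to 9722) from 5. *ins-4*, an agonist that acts against dauer entry, had 4.18, 5.61 and 6.10 CPM in *daf-16(0)* libraries and 11.5, 0 and 1.03 CPM in controls. Again control replicate 1 was the highest library and the other controls were below every *daf-16(0)* library. In edgeR's test the log2 fold change of *ins-4* was 0.072 (SE 1.64, adjusted p = 0.979) with 4 libraries and 0.36 (SE 1.46, adjusted p = 0.892) with 6. Without control replicate 1 the single control left of the 4 libraries was at 0 counts. Against its floor of 3 counts the *daf-16(0)* level of *ins-4* was higher by at least 17.1-fold. From the other 5 libraries the log2 fold change was 3.29 (adjusted p = 0.241, edgeR).

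Control replicate 1 was the only control with more than 3 counts for 7 of the 40 genes (*daf-28*, *ins-5*, *ins-10*, *ins-11*, *ins-16*, *ins-19* and *ins-24*), a share of 17.5%, while 4.89% of all protein-coding genes were over 3 counts in that control alone. The corresponding number was 1 in control replicate 2 (*ins-7*, 2.5% of members against 2.28% of all genes). It was 0 in control replicate 3, against 2.06% of all genes. In *daf-16(0)* libraries it was 3, 1 and 3. These were 7.5%, 2.5% and 7.5% of members, against 2.58%, 1.83% and 3.49% of all genes, so replicates 1 and 3 were above the all-gene share too. This count was chosen after the values were seen. Control replicate 1 also had the highest ribosomal share, and whether that played a part was not tested.

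The remaining agonists did not pass the threshold. *ins-35*, which acts with *ins-7* in favour of reproductive growth, had 0.979, 8.13 and 6.03 CPM in *daf-16(0)* libraries and 23.7, 6.38 and 17.8 CPM in controls. The ranges overlapped through control replicate 2. The log2 fold change was -1.06 (SE 0.72, adjusted p = 0.324) with 4 libraries and -1.66 (SE 0.83, adjusted p = 0.220) with 6 in edgeR's test, and 0.15 without control replicate 1 of the 4. *ins-3* had 57, 0 and 21 counts in *daf-16(0)* libraries and 4, 17 and 0 in controls. Its log2 fold change changed sign between the fits, at -0.61 with 4 libraries and 1.11 with 6. *ins-9* was found in *daf-16(0)* replicate 2 with 16 counts and in none of the other libraries. The 7 agonists summed to 15.7, 28.8 and 37.5 CPM in *daf-16(0)* libraries and 47.8, 9.80 and 18.8 CPM in controls, which overlapped. In edgeR's test 0 of the 6 tested were called, where 15% of all genes were called with 4 libraries and 12.4% with 6. On 6 genes this was not read as apart from the background, and DESeq2 called 1 of them, *ins-7*, higher.

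The other members tested had no call in edgeR. *ins-27* had 12.3, 14.7 and 18.3 CPM in *daf-16(0)* libraries and 11.1, 14.1 and 5.59 CPM in controls, which overlapped. Its log2 fold change was 0.41 (SE 0.44, adjusted p = 0.534) with 4 libraries in edgeR's test, and its standard error was among the smaller of the family. *ins-20* had 1.76, 5.17 and 9.46 CPM in *daf-16(0)* libraries and 3.83, 1.37 and 0 CPM in controls, with a log2 fold change of 1.52 (SE 0.87, adjusted p = 0.25) in the same fit. *ins-33* had 2.68, 9.01 and 9.61 CPM in *daf-16(0)* libraries and 18.9, 1.25 and 6.77 CPM in controls, so that the controls enclosed the *daf-16(0)* values. *ins-5*, *ins-12*, *ins-24*, *ins-26* and *ins-30* had at most 90 counts in any library and standard errors of 1.15 to 2.03. Another 11 members had over 3 counts in at least 1 library and were tested in neither fit.

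The genes lie on all 6 chromosomes, with 16 on chromosome II and 10 on chromosome I. When neighbours at most 20 kb apart were joined, 26 of the 40 fell into 7 arrays. In the array of 7 genes on chromosome I (14012369 to 14037803, 25.4 kb), neighbours differed in level and in direction. *ins-28* and *ins-29*, at its left end, were below every control in *daf-16(0)*. *ins-25* had no count, *ins-27* overlapped between genotypes, and *ins-24* was above every control with 15, 8 and 23 counts in *daf-16(0)* and 4, 0 and 0 in controls. At the right end, *ins-30* and *ins-26* were highest in control replicate 3 and overlapped. In the array of 6 genes on chromosome II (5988526 to 6011321, 22.8 kb), which holds *ins-2*, *ins-3*, *ins-4*, *ins-5*, *ins-6* and *ins-20*, no gene was called and *ins-2* had no count. *ins-4* and *ins-5* were both highest in control replicate 1, at 11.5 and 5.68 CPM, whereas their neighbour *ins-3* was highest in *daf-16(0)* replicate 1, at 3.72 CPM. *ins-10*, *ins-13*, *ins-34* and *ins-36* overlap another gene by the coordinates in the deposited counts. Since the strand setting of the counting is not given in the sources used here, reads of such pairs may not be separable.

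**Figure D4:**
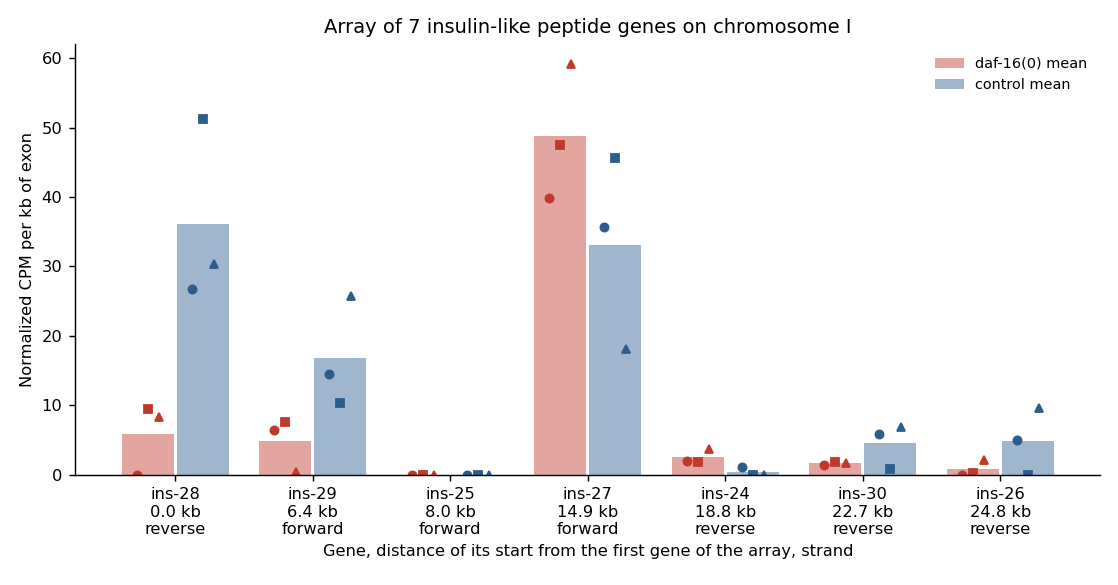
CPM per kb of exon for the 7 genes of the array on chromosome I, ordered by position, with the distance in kb of each start from the first gene and its strand below. Bars are means of 3 libraries and points are single libraries, *daf-16(0)* left of control; *ins-28* and *ins-29* are below every control, *ins-27* overlaps, and *ins-25* is at 0.

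Some of the genes that process and release the peptides were lower in *daf-16(0)*. In a list of 10 genes of peptide processing and secretion, 0 were higher and 3 were lower with 4 libraries (*egl-3*, *bli-4* and *ida-1*), and 0 were higher and 4 lower with 6 (*egl-3*, *sbt-1*, *unc-31* and *ida-1*), beside 9.59% of all genes tested called lower with 4 libraries and 7.39% with 6. With 1 of the 6 libraries left out, *egl-3*, *sbt-1* and *ida-1* were each called in 1 of the 6 fits, the fit without control replicate 3, and *unc-31* in 2. The median log2 fold change of the list was -1.0 with 4 libraries and -1.08 with 6. *ida-1*, a phogrin-like protein of dense core vesicles, had 188, 220 and 280 CPM in *daf-16(0)* libraries, against 1519, 1595 and 550 CPM in controls. The genotypes did not overlap, and the log2 fold change was -2.62 (SE 0.34, adjusted p = 0.00893, edgeR) with 4 libraries, a call that was lost when *daf-16(0)* replicate 2 was left out (adjusted p = 0.0660). *egl-3*, the proprotein convertase of neuropeptides, had 229, 288 and 377 CPM in *daf-16(0)* libraries, against 918, 920 and 554 CPM in controls, with a log2 fold change of -1.45 (SE 0.32, adjusted p = 0.0343, edgeR) with 4 libraries. The call of *egl-3* was lost without *daf-16(0)* replicate 2 (adjusted p = 0.246) or 3 (adjusted p = 0.111), and so was that of *bli-4*, a convertase known for its part in cuticle formation (adjusted p = 0.231 and 0.119, edgeR). Neurons are a main source of these transcripts, and 11 general neuron markers summed to 416, 481 and 618 CPM in *daf-16(0)* libraries and to 1449, 1487 and 904 CPM in controls, with 0 higher and 4 lower in both fits. The markers *unc-119*, *rgef-1* and *unc-13* overlapped between genotypes, while the others of this list were below every control. *unc-119* had 15.4 to 16.7 CPM in *daf-16(0)* libraries and 13.9 to 21.2 CPM in controls. The family sum, the antagonist sum and the sum of the secretion list were also lower in the *daf-16(0)* libraries. The part of neuronal RNA in these sums was not tested. The first 2 sums both include *ins-17* and *ins-18*, and the family sum without them overlapped between genotypes. In the secretion list *aex-5* and *asna-1* had positive log2 fold changes (0.46 and 0.45 with 4 libraries). In whole-larva RNA, fewer cells of a type and less RNA per cell cannot be told apart.

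Markers of the cells known for many of the peptides did not move together. A list of 8 genes taken as markers of ASI and ASJ summed to 12.2, 18.1 and 32.6 CPM in *daf-16(0)* libraries and 60.7, 54.7 and 36.4 CPM in controls. With 4 libraries 0 were higher and 1 lower of 4 tested, and with 6 there was no call among 5 tested. Whether each gene of the list is limited to these cells was not checked. Most of the control sum was *daf-7*, the gene mutated in both groups, at 3.98, 12.8 and 22.0 CPM in *daf-16(0)* libraries and 49.8, 48.6 and 31.4 CPM in controls. The other 7 summed to 8.22, 5.39 and 10.6 CPM in *daf-16(0)* libraries and 10.9, 6.16 and 5.03 CPM in controls, which overlapped. Of these, *tax-2* and *trx-1* were below every control, *gpa-9* was above every control, *gpa-4*, *ssu-1* and *tax-4* overlapped, and *str-3*, a receptor of ASI, was at 0 in every library. Intestine markers summed to 2904, 3329 and 4125 CPM in *daf-16(0)* libraries and 2003, 1833 and 1389 CPM in controls, with 4 of 9 called higher with 4 libraries and 2 with 6. Of these, *ges-1*, *vha-6*, *act-5*, *pho-1* and *pept-1* were above every control, while *elt-2*, *elt-7*, *ifb-2* and *mtl-2* overlapped. Over all genes tested, 5.37% were called higher and 9.59% lower with 4 libraries, and 5.06% and 7.39% with 6. Hypodermis markers summed to 1003, 702 and 491 CPM in *daf-16(0)* and 267, 287 and 220 CPM in controls, with 1 higher and 1 lower of 7 with 4 libraries and 3 higher and 0 lower with 6. In that list the cuticle collagens *rol-6*, *dpy-7* and *bli-1* and the receptor *nhr-23* were above every control, while the transcription factors *elt-1*, *elt-3* and *lin-26* were below every control. Germline markers, at 1235, 753 and 322 CPM in *daf-16(0)* and 230, 94.6 and 642 CPM in controls, overlapped through control replicate 3 only. Within the 4 libraries both *daf-16(0)* sums were above both control sums. Every marker of that list was highest among the controls in replicate 3. *puf-5* had 205, 69.2 and 13.7 CPM in *daf-16(0)* libraries and 2.70, 0 and 159 CPM in controls. It was thus highest in the 2 libraries outside the 4-library comparison. The part of this in the 6-library results was not tested.

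The receptor itself did not pass the threshold. *daf-2* had 75.8, 50.1 and 126 CPM in *daf-16(0)* libraries, against 212, 118.9 and 117 CPM in controls, which overlapped, and its log2 fold change was -0.89 (SE 0.51, adjusted p = 0.252, edgeR) with 4 libraries. In a list of 13 genes of the cascade, which includes *daf-2* and the deleted *daf-16*, 1 was higher and 5 lower with 4 libraries, and 0 were higher and 4 lower with 6. Over all genes tested, 5.37% were higher and 9.59% lower with 4 libraries, and 5.06% were higher and 7.39% lower with 6. The lower genes of the 4-library fit were *daf-16*, the kinases *pdk-1* (log2 fold change -3.19), *akt-1* (-2.51) and *akt-2* (-2.10), and the 14-3-3 protein *ftt-2* (-1.23). Leaving out *daf-16(0)* replicate 2 ended the calls of *akt-2* (adjusted p = 0.0876) and *ftt-2* (adjusted p = 0.254), and leaving out replicate 3 that of *ftt-2* (adjusted p = 0.216), in edgeR's test. With 6 libraries *pdk-1*, *akt-1*, *akt-2* and *daf-16* were called, and without *daf-16(0)* replicate 2 the calls of *pdk-1* (adjusted p = 0.0623) and *akt-2* (adjusted p = 0.0641) were lost in edgeR's test. *sgk-1*, a kinase related to the AKT kinases, had 96.0, 80.2 and 79.1 CPM in *daf-16(0)* libraries, against 13.6, 22.8 and 0.205 CPM in controls. No control reached the *daf-16(0)* values, and *sgk-1* was higher by a log2 fold change of 2.14 (SE 0.37, adjusted p = 0.0168, edgeR) with 4 libraries. Its adjusted p was 0.132 with all 6 libraries, 0.0539 without *daf-16(0)* replicate 2 of the 4 and 0.05002 without replicate 3 of the 4, all in edgeR's test.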

How the data were processed

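Per the labels and the study's methods, dauer RNA was made into TruSeq libraries, and the authors used Trimmomatic 0.39 for trimming, STAR 2.4.2a for alignment to WBcel235 and RSEM 2.1 for the expected counts. The deposited table of expected counts for 6 libraries was used. It was rounded to whole numbers and restricted to protein-coding genes. Deposited scaled counts of 4 libraries and a table of the authors' DESeq2 1.30.0 comparison (fold changes and p-values) were not used. The labels and the growth protocol name different strains for *daf-16(0)*, and the authors looked for outlier samples with FastQC 0.11.7 and a principal component analysis without naming any.

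edgeR 4.0.16 (R 4.3.3; TMM, filterByExpr, quasi-likelihood test, Benjamini-Hochberg) compared *daf-16(0)* with control over all genes that passed the filter, with 4 libraries as the main fit and 6 beside it. A call required an adjusted p of 0.05 and a log2 fold change of 1. DESeq2 1.42.0, RLE factors, other filters, all biotypes, a replicate block and leaving out each library were tried. CPM was scaled by TMM over 6 libraries, and levels per kb used the union of exons in Ensembl release 115. Only 6 of the 40 members had the same coordinates in that release as in the deposited counts, so levels per kb are approximate. Counts per library bound the precision, and the floor of 3 counts covers counting error only. Nothing states how separate the larval cultures were, so p-values measure the spread between libraries, which may be partly technical. Members and gene lists (agonists, antagonists, cascade, secretion, cell type and stage markers) were chosen with earlier results of these data known. Values in every library were given for members called in either fit, members whose genotypes did not overlap, the listed agonists and antagonists and the 5 members highest in controls. Other members named (*ins-14*, *ins-20*, *ins-33* and those of the arrays) were added after their values were seen.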

Additional observations from a re-analysis of the deposited data

How the results depend on the processing

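The count of members called lower with 4 libraries (1) was 3 with all 6 libraries, 4 in DESeq2 and 3 with no filter on low counts. That call, of *ins-18*, was lost without *daf-16(0)* replicate 2 or 3. The count called higher (0) was 1 in DESeq2. Leaving out 1 of the 4 libraries leaves 1 library in a group, and calls gained that way were not read as results. With 6 libraries the count higher (0) was 2 in DESeq2 and 0 to 1 with 1 library left out. The 1 was *daf-28* without control replicate 1, which was not read as a result either. The count lower (3) was 1 with the replicate number as a block (*ins-18*), and 0 to 2 with 1 library left out, being 0 without any 1 of the *daf-16(0)* libraries, 1 without control replicate 1 or 2 and 2 without control replicate 3. The replicate numbers do not pair the libraries: same-numbered libraries had correlations of deviations of -0.12, -0.0063 and -0.31. The block could only be fitted with 6 libraries, because the 4 share 1 number.

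The median log2 fold change of the members tested with 4 libraries turned positive, at 1.99, once control replicate 1 was dropped. Among single genes, signs that turned were those of members with no call. In the 4-library fit *ins-3* (-0.61) was 1.11 with all 6 libraries, and with 1 library left out it was -6.40 to 0.54. Leaving out 1 of the 4 libraries gave -0.95 to 8.92 for *ins-4*, -1.78 to 7.51 for *ins-5*, -1.73 to 1.04 for *ins-30*, -1.0 to 2.89 for *ins-33* and -1.72 to 0.15 for *ins-35*. With 6 libraries the ranges were -0.011 to 2.70 for *ins-3*, -0.25 to 3.29 for *ins-4*, -0.92 to 0.16 for *ins-12* and -0.86 to 0.82 for *ins-33*, and *ins-33* was 0.24 with the replicate block. Where 1 library was left in a group, it was assumed to vary like the other group. The highest values of *ins-4* and *ins-5* come from a control at 0 counts and are no bounds. The causes were not tested.

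Over all genes, the 727 higher and 1298 lower calls of 4 libraries were 1578 and 2028 in DESeq2 and 1626 and 1971 with no filter. The 690 and 1007 calls of 6 libraries were 1568 and 1834 in DESeq2 and 162 and 222 with the replicate block. The filter on low counts left 20 of the 40 members tested in neither fit.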
